A study of Mus musculus with 30 samples.

Results

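Kinesins are motor proteins that work along microtubules, and 7 genes of this machinery with alternative splicing events are described here, in neurons with and without Nova2: the motors Kif1b, Kif2a, Kif5c, Kif21a, Kif21b and Kifc2, and the light chain Klc1. Every event whose gene symbol matched one of these names was taken from the 4 deposited splicing tables. This gave 36 distinct events, in 44 entries of 6491, at 10 places in the 7 genes, out of 2016 genes with a listed event. The symbols were chosen with results of these data known, and the tables hold only events that passed the authors' thresholds, an FDR of 0.05 and a difference of 0.1. A listed event is therefore one with a difference, and an event that is not listed has no level here.

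NOVA2 binds RNA in neurons and sets which exons of many transcripts are kept. The compared groups, of 3 samples each, were sorted cortical neurons at embryonic day 18.5 with the genotypes Wild-type_Emx1-Cre, Nova2-cKO_Emx1-Cre, Wild-type_Gad2-Cre and Nova2-cKO_Gad2-Cre, and dissected Purkinje cell layer at postnatal day 28 with the genotypes Wild-type_Pcp2-Cre and Nova2-cKO_Pcp2-Cre. cKO stands for conditional knockout, the deletion of Nova2 only where the Cre is active, and all mice were C57BL/6J. Emx1-Cre acts in the lineage of cortical excitatory neurons, Gad2-Cre in GABA-producing inhibitory neurons and Pcp2-Cre in Purkinje cells. The labels do not say how the neurons were recognised in the sort, and the tables hold no expression level, so the makeup of the samples was not tested. Of 28 marker genes of glia, vessels and granule cells, 1 had a listed event in the Emx1-Cre table and 0 had one in the others. It was the astrocyte marker Slc1a2, with an exon at 0.0594 in controls and 0.309 in cKO by the authors' values. Of all 2016 genes with an event in any table, 57.3% were in the Emx1-Cre table. That share compares with the 1 marker that had an event and not with the 28. A gene without a listed event may still be expressed, so these counts do not show which cells were present. Nova2 itself had 0 listed events in each table, so its loss could not be seen in them.

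In neurons, kinesins carry vesicles, organelles and RNA along axons and dendrites. Most have a motor domain that binds the microtubule and uses ATP, a coiled coil that pairs the subunits, and a tail that takes the cargo. KIF1B carries mitochondria and synaptic vesicle precursors. KIF5C is a heavy chain of conventional kinesin and works with light chains such as KLC1, which link it to cargo. KIF2A does not walk but removes tubulin from microtubule ends, with its motor domain in the middle of the protein, and it restrains the growth of axon branches. KIF21A and KIF21B limit microtubule growth, and KIFC2 is a motor with its motor domain at the C-terminal end.

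The sequences below are regions whose use differed between groups, chosen to show the kinds of change that the results describe, from an exon of 15 nt to a retained intron. Their support differs, and the coverage is given with each result. They are read from GENCODE release M21 transcripts, on mouse build mm10 and the sense strand. Except in the intron, capitals mark the tetramers TCAT or TCAC or CCAT or CCAC, together called YCAY, the motif that NOVA proteins are known to bind.
Kif2a exon, chr13:106969704-106969817, minus strand: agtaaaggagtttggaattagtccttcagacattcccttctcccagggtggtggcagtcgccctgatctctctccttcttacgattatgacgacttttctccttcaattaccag
Kif21a early exon, chr15:90976471-90976509, minus strand: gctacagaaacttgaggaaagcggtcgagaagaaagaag
Kif21a late exon, larger, chr15:90949006-90949044, minus strand: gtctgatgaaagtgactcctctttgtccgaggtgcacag
Kif21a late exon, smaller, chr15:90948324-90948338, minus strand: cagatCCACcagaag
Kif1b exon, chr4:149220542-149220790, minus strand: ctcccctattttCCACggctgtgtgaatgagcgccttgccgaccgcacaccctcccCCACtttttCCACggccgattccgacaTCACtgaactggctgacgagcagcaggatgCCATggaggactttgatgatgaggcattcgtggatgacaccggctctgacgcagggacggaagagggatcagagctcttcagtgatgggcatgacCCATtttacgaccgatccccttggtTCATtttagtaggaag
Kif1b splice site extension, chr4:149258004-149258081, minus strand: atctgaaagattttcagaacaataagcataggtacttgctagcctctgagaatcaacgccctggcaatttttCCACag
Kif1b short exon, chr4:149265345-149265362, minus strand: gataactgcacaagcaag
Kifc2 intron, chr15:76662673-76662781, plus strand, with its first and last bases in capitals: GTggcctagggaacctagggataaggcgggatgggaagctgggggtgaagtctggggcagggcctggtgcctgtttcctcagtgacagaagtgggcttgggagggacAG

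The 249 nt Kif1b exon held 7 YCAY tetramers. Among 125 internal coding exons of that length in GENCODE, 97.6% held at least 1, the median was 4, and 22.4% held 7 or more. The Kif2a exon held 0, whereas 84.1% of 1459 exons of 114 nt held at least 1. The early and the larger late exon of Kif21a held 0 each, and 40.2% of 378 exons of 39 nt held 1 or more. The smaller late exon held 1, and 24.4% of 86 exons of 15 nt held at least 1. The Kif1b extension of 78 nt held 1, and 69.1% of 1249 whole exons of that length held at least 1. The extension is only a part of an exon, so this comparison is not of like with like. The short exon of Kif1b held 0, where 16.8% of 125 exons of 18 nt held any. Tetramers were searched on the sense strand only and may overlap, and the flanking introns were not analysed here.

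For each event the authors named 2 isoforms, and the inclusion level is the fraction of these 2 that the first one takes up. Levels of overlapping events can thus add to more than 1 and are not shares of all transcripts of a gene. For a cassette, the first is the form with the exon. There is 1 pooled level per group, so no level has a replicate error, and sample depth is unknown. Coverage, a deposited value with no stated definition, serves below as a guide to the support of an event. In the Emx1-Cre table, 10 events of 5 members were listed, and the first-named isoform was lower in cKO in 8 of them. Over all 2682 events of that table, 51.6% were lower. In the Gad2-Cre table, 7 events of 4 members were listed, 6 of them lower in cKO, against 58.6% of all 1970 events. The median size of the member differences was 0.314 in the Emx1-Cre and 0.368 in the Gad2-Cre table, beside 0.209 and 0.202 over all events of these tables. Several events of a gene share the same exon, so these counts hold fewer separate changes than events.

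**Figure D1:**
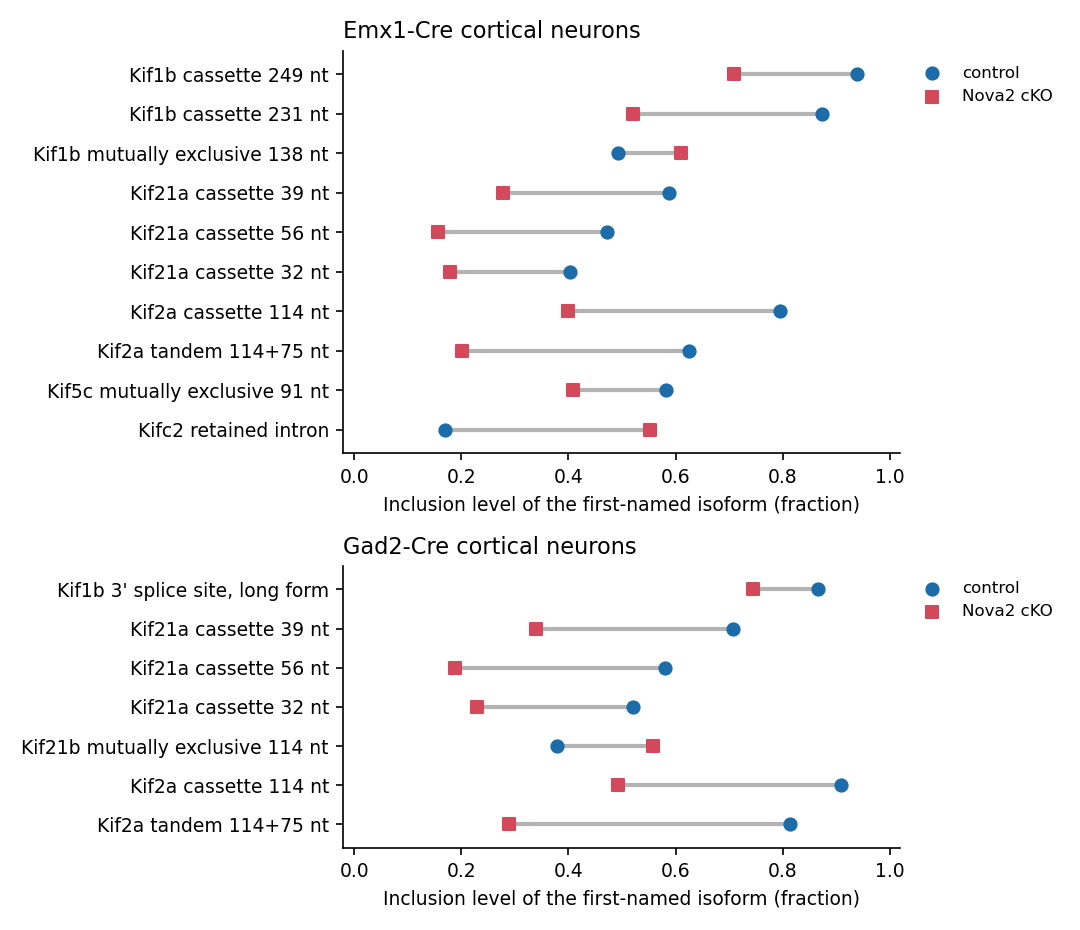
Inclusion level of the first-named isoform (horizontal axis, fraction from 0 to 1) of each listed kinesin event in Emx1-Cre (top) and Gad2-Cre (bottom) cortical neurons; circles are the authors' pooled control levels, squares those of the Nova2 cKO, and no error is available. The cassette and tandem exons of Kif2a, Kif21a and Kif1b lie further left in cKO, while the Kifc2 intron lies further right.

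Kif2a, the microtubule depolymerase, included its 114 nt exon less in cKO in both classes of cortical neuron. In the authors' deposited tables the cassette level was 0.795 in Emx1-Cre controls and 0.400 in cKO (FDR 8.05e-08, coverage 112). It was 0.910 in Gad2-Cre controls and 0.492 in cKO (FDR 5.16e-10, coverage 96.2). The loss was 49.7% of the control level in Emx1-Cre and 45.9% in Gad2-Cre neurons. The exon lies on chromosome 13 from 106969704 to 106969817 and is coding exon 18 of 22 in the transcript Kif2a-204, with 72.7% of the coding sequence before it. GENCODE has it in 2 of 5 coding transcripts that span the place, and at 114 nt it keeps the reading frame.

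A tandem event joins this exon to a region of 75 nt upstream of it, on chromosome 13 from 106970610 to 106970684, which is not a GENCODE exon. Its level in the authors' deposited tables fell from 0.625 to 0.201 in Emx1-Cre neurons (FDR 2.27e-05) and from 0.814 to 0.289 in Gad2-Cre neurons (FDR 2.15e-08). As both events contain the 114 nt exon, they may count 1 change. The tandem form was also listed between the controls, at 0.625 in Emx1-Cre and 0.814 in Gad2-Cre neurons in the authors' deposited table (FDR 0.0255, coverage 33). From high to low the cassette levels were those of Gad2-Cre controls, Emx1-Cre controls, Gad2-Cre cKO and Emx1-Cre cKO. Between the controls the cassette itself was not listed, and the cKO groups were not compared with each other.

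Kif21a, a motor that restrains microtubule growth, included its early exon of 39 nt less in cKO in both classes. Its authors' level fell from 0.589 to 0.277 in Emx1-Cre neurons (FDR 3.37e-05, coverage 112) and from 0.707 to 0.339 in Gad2-Cre neurons (FDR 0.00142, coverage 99). The loss took 52.9% of the control level in the former and 52.0% in the latter. This coding exon, on chromosome 15 from 90976471 to 90976509, is exon 12 of 37 in Kif21a-202 and has 33.4% of the coding sequence before it. Other listed forms of the exon, of 56 and 32 nt, share one of its ends, do not keep the frame and are not GENCODE exons. The 56 nt form fell from 0.473 to 0.157 and from 0.580 to 0.188 in the authors' deposited tables, and the 32 nt form from 0.402 to 0.179 and from 0.521 to 0.229. The latter events overlap the 39 nt exon and are not separate evidence.

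The 5 events of Kif2a and Kif21a were the kinesin events listed in both cortical tables, 5 of the 10 listed in the Emx1-Cre and of the 7 in the Gad2-Cre table, and all 5 fell in both. Of all events, 30.7% of the Emx1-Cre table were also in the other and 41.9% of the Gad2-Cre table. Over the 820 distinct events shared by the tables, 97.4% had the same direction. The difference in level was larger in Gad2-Cre neurons in each of the 5, but as a share of the control level the loss was larger in Emx1-Cre neurons in 3 of them. The contrasts share no samples. The difference between the classes was tested with a spread for each effect computed from its deposited p-value, a two-sided normal test adjusted with Benjamini-Hochberg over all 820 shared events, of which 13.0% passed. None of the 5 did (0 at an adjusted p under 0.05 and 0 at an unadjusted one). For the Kif2a cassette the Emx1-Cre difference in level, control minus cKO, less that in Gad2-Cre was -0.0222 (95% interval from -0.200 to 0.156, adjusted p = 0.922), and for the tandem form -0.100 (from -0.340 to 0.140, adjusted p = 0.709). For the 39 nt Kif21a exon it was -0.0562 (from -0.283 to 0.171, adjusted p = 0.850). These intervals reach differences between the classes of 0.340, which is not an upper limit. The deposited p-values may reflect technical spread alone, so the intervals may be too narrow. The 5 events were also tested only because they passed the authors' thresholds in both tables.

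**Figure D2:**
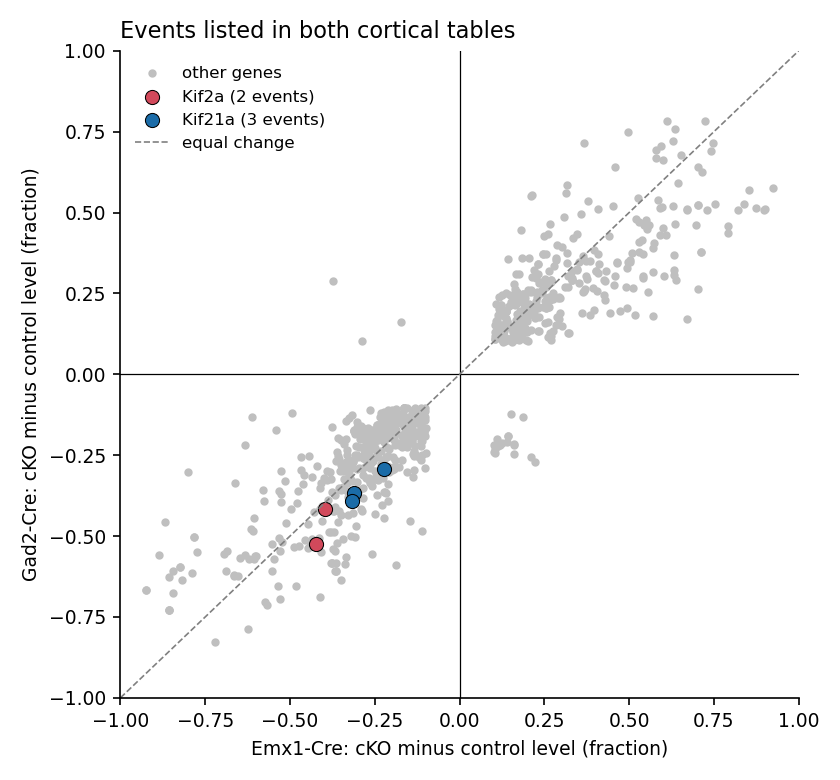
Change of inclusion level, cKO minus control, in Emx1-Cre (horizontal axis) and Gad2-Cre neurons (vertical axis) for the 820 events listed in both tables; coloured points are events of Kif2a and Kif21a, grey points those of other genes, and the dashed line marks equal change. The kinesin points lie where both changes are negative and below the line, with larger differences in level in Gad2-Cre neurons. The empty bands near 0 come from the authors' minimum difference of 0.1.

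Kif1b, the carrier of mitochondria and synaptic vesicle precursors, was listed at different places in the classes. In Emx1-Cre neurons, the authors' deposited table has the 249 nt exon at 0.938 in controls and lower, at 0.710, in cKO (FDR 3.66e-19, coverage 218). This coding exon, on chromosome 4 from 149220542 to 149220790, is exon 25 of 47 in Kif1b-202, keeps the frame and has 47.8% of the coding sequence before it. A form of 231 nt that begins with the same base and stops 18 bases earlier fell from 0.874 to 0.521 by the authors' value (FDR 6.31e-19). Each level is taken against skipping. The 231 nt form is not a GENCODE exon, overlaps the 249 nt exon and is not separate evidence. Against skipping, the 249 nt exon stayed the main form in cKO. The mutually exclusive isoform with the upstream coding exon of 138 nt rose from 0.492 to 0.610 (FDR 0.000588, the authors' values), as did 32.0% of the mutually exclusive events of that table. That exon ends at base 149222364, where the interval of the cassette also ends, so it flanks the 249 nt exon. The rise may therefore count the same change as the fall of the cassette. The deposited intervals do not show its partner isoform.

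In Gad2-Cre neurons another region of Kif1b was listed, an alternative 3' splice site that lengthens a coding exon. The first-named isoform has an exon of 212 nt, on chromosome 4 from 149257870 to 149258081. GENCODE also has an exon of 134 nt with the same end, so the extension printed above is 78 nt and keeps the frame. By the authors' values the longer form fell from 0.865 to 0.745 with the loss of Nova2 (FDR 0.000462, coverage 181), and 33.9% of such events of the table were lower in cKO. In Emx1-Cre controls it was at 0.640, lower than in Gad2-Cre controls (FDR 7.07e-08, the authors' deposited table), the direction of 60.6% of such events. Its level in the Emx1-Cre cKO is not in the tables.

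Before any loss of Nova2, Kif1b differed between the classes in a further coding exon, of only 18 nt. Its level was 0.852 in Emx1-Cre and 0.959 in Gad2-Cre controls in the authors' deposited table (FDR 0.000389, coverage 70.4). The 18 nt exon and the 78 nt extension lie early in the coding sequence, with 15.9% and 22.4% of it before them in Kif1b-203. GENCODE has each in 1 of 3 coding transcripts that span the place. Both were used less in Emx1-Cre than in Gad2-Cre controls.

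Kif21a had the most events between the control classes, in a group of late exons apart from the early one. Of its 22 distinct events, 19 lay at this place, and none of these 19 was listed in either cortical cKO table. Over the whole table of controls, 57.6% of events were in neither. The larger late exon, of 39 nt and on chromosome 15 from 90949006 to 90949044, was at 0.317 in Emx1-Cre and at 0.616 in Gad2-Cre controls in the authors' deposited table (FDR 2.05e-05, coverage 74.3). Another event of the same exon, with other flanking exons, was at 0.158 and 0.273 (FDR 0.0373, the authors' values). The smaller exon, of 15 nt, was at 0.0997 and 0.298 in the authors' deposited table (FDR 0.00327), at a coverage of only 28. An overlapping form of 12 nt had the same levels and coverage, so these forms cannot be told apart here. All of these levels were higher in Gad2-Cre controls, but only in the first event was the exon in the majority form there.

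All 15 cassette and tandem events at this place had more inclusion in Gad2-Cre controls, whereas 64.2% of all cassette and tandem events of that table did. The coverage of these 15 events ran from only 28 to 76.4. Their authors' levels ranged from 0.0562 to 0.359 with a median of 0.158 in Emx1-Cre controls, and from 0.216 to 0.616 with a median of 0.323 in Gad2-Cre controls. The ranges overlap because the events differ in level among themselves. The 4 mutually exclusive events name the form with the 108 nt exon first, and they were higher in Emx1-Cre controls, from 0.693 to 0.729 against 0.429 to 0.600 in the authors' deposited table. Of all mutually exclusive events between controls, 50.3% were higher in Emx1-Cre. Exons of 12, 15, 21, 39, 108 and 129 nt take part here in different combinations, and every one of these lengths is a multiple of 3. They lie late in the coding sequence, with 73.3% to 77.9% of it before those that are GENCODE exons. The 19 events reuse these few exons and are not separate changes.

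**Figure D3:**
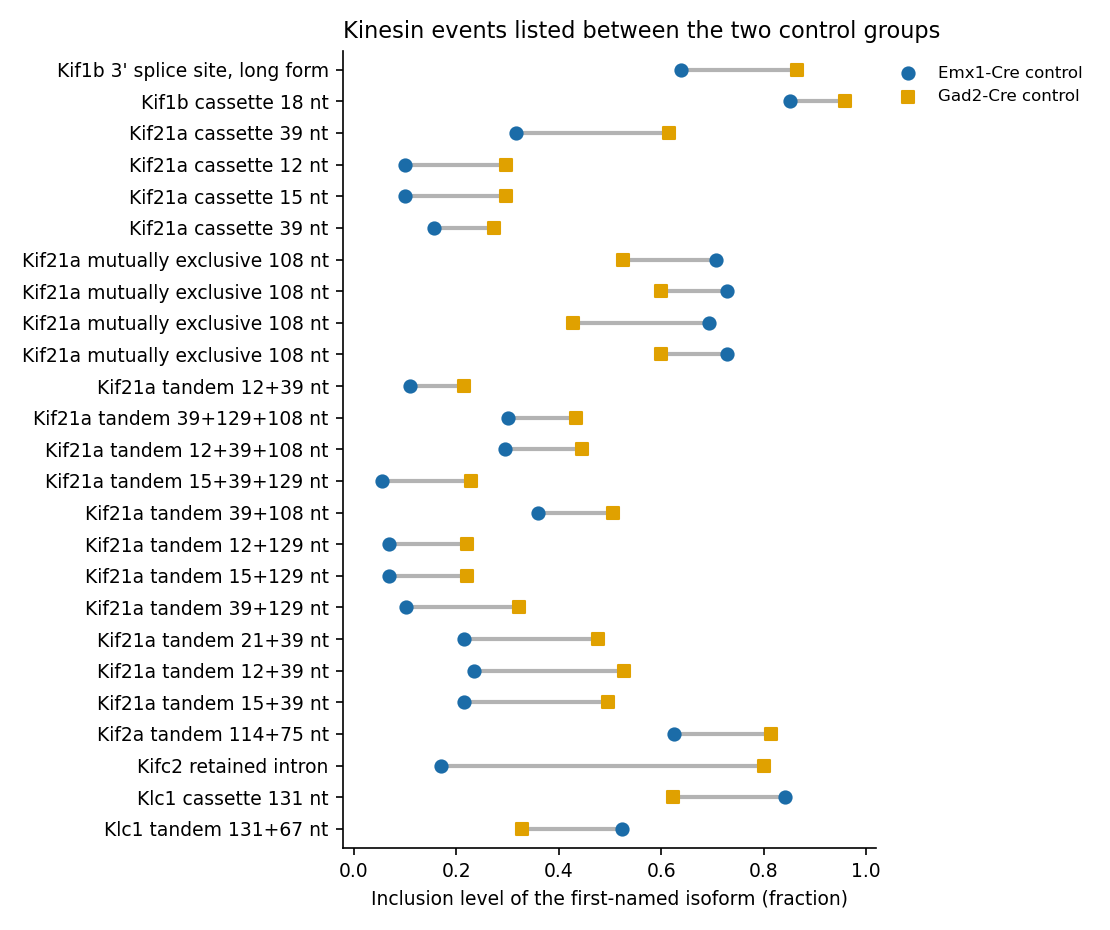
Inclusion level of the first-named isoform (horizontal axis, fraction from 0 to 1) of the 25 kinesin events listed between controls; circles are Emx1-Cre and squares Gad2-Cre control levels, each the authors' pooled value with no error. In all cassette and tandem events of Kif21a the square lies to the right, and the Kifc2 intron has the widest gap, from 0.170 to 0.800.

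Across all kinesin genes, 25 events of 5 members were listed between the controls, 19 higher in Gad2-Cre and 6 higher in Emx1-Cre neurons, beside 63.7% higher in Gad2-Cre over all 1236 events. With 1 event per gene, 4 of 5 were higher in Gad2-Cre. The median difference was 0.189 in the members and 0.201 over the table. These control samples also serve in the cKO tables, so the comparisons are not independent of each other.

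Kifc2, the motor with a C-terminal motor domain, had a retained intron of 109 nt that was more frequent in Emx1-Cre cKO. Its retained form was at 0.170 in Emx1-Cre controls and at 0.552 in Emx1-Cre cKO in the authors' deposited table (FDR 0.00182). In Gad2-Cre controls it was at 0.800, so the classes differed widely before any loss of Nova2 (FDR 0.000304, the authors' deposited table). It was not listed in the Gad2-Cre cKO table. The coverage of these events was low, at 31 and 25. Retained introns were higher in cKO in 84.2% of the 297 of the Emx1-Cre table, and higher in Gad2-Cre controls in 84.8% of 112, so the direction in Kifc2 is the common one. The intron, on chromosome 15 from 76662673 to 76662781, follows exon 8 of 18 in Kifc2-201. Its length is not a multiple of 3, and GENCODE includes it in 2 transcripts, of the types retained intron and nonsense-mediated decay.

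For Kif5c and Kif21b the tables list mutually exclusive events only. The Kif5c form with an exon of 91 nt, on chromosome 2 from 49671752 to 49671842, fell in Emx1-Cre cKO, from 0.583 to 0.409 by the authors' values (FDR 5.92e-15), as did 68.0% of the mutually exclusive events of that table. Its coverage, 1259, was the highest of the set. This exon is coding exon 2 of 26 in Kif5c-201, the only coding transcript that spans it. The event is also assigned to the overlapping gene Gm13525, so its source is uncertain. In Gad2-Cre cKO a Kif21b form rose from 0.380 to 0.558 (FDR 0.0314, coverage 137, the authors' values), as did 38.0% of such events of the table. Its coding exon has 114 nt and spans bases 136165018 to 136165131 of chromosome 1. This is exon 27 of 35 in Kif21b-201, again in the only coding transcript. In both genes the partner isoform is not shown by the deposited intervals, and the direction depends on which isoform is named first.

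Klc1, the light chain, was the only member listed in the Purkinje table, with 2 overlapping events. Light chains differ at their C-terminal ends through alternative splicing, and there the listed exons lie. The labels do not say which group of that table is the control, so its levels were not used and the sign of a difference gives no direction for the cKO. The 51 nt exon, on chromosome 12 from 111793649 to 111793699, had a difference of 0.192 between the groups in the authors' deposited table (FDR 0.0258, coverage 165). For a form of 55 nt the authors' difference was 0.171 (FDR 0.0257). Both differences were positive, as were 32.2% of the 603 in the table. In Klc1-203 the exon holds the last 30 coding nucleotides, with 98.2% of the coding sequence before it.

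Between the cortical controls, another exon of Klc1, of 131 nt, was listed. It was at 0.843 in Emx1-Cre and 0.623 in Gad2-Cre neurons in the authors' deposited table (FDR 0.0364), with 89.3% of the coding sequence before it in Klc1-201. A tandem form with a 67 nt region that is not a GENCODE exon was at 0.524 and 0.329 by the authors' values (FDR 0.0370). Coverage was only 23.6 for both, and both contain the 131 nt exon. The 6 events higher in Emx1-Cre controls were these 2 of Klc1 and the 4 mutually exclusive ones of Kif21a. Klc1 had no listed event in either cortical cKO table.

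**Figure D4:**
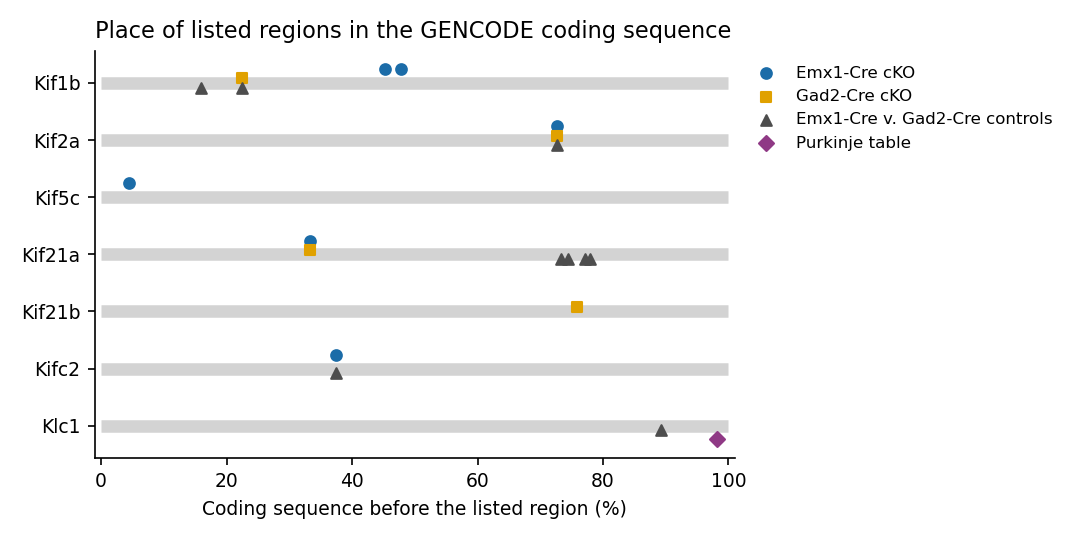
Place of each listed kinesin region that is a GENCODE coding exon, as the percent of coding sequence before it (horizontal axis), by gene; for Kifc2 the point is the exon after the intron. Colours and shapes give the table that lists the place, and in Kif21a the cKO tables list a place at 33.4% while the table of controls lists places from 73.3% to 77.9%.

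The alternative exons of these genes often had a length that is a multiple of 3. Of 21 distinct alternative exons in cassette, tandem and mutually exclusive events, from 12 to 249 nt, this held for 15 (71.4%). Over the 3331 such regions of all 4 tables it was 47.1%. Such a length keeps the reading frame only where the whole exon is coding. By GENCODE this is not so for the 51 nt exon of Klc1, the 75 nt region of Kif2a and the 21 nt region of Kif21a. No test was made of this difference, since overlapping regions of a gene are not independent.

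Other genes of the transport machinery were listed too. Of 50 kinesin superfamily genes, 5 were listed in the Emx1-Cre table, all of them members, with the largest event of the gene lower in cKO in 4 and higher in 1. Of the 50, 5 were listed in the Gad2-Cre table, 4 lower and 1 higher. The only one outside the members was Kifc3, a minus-end motor. Its cassette was at 0.488 in controls and lower, at 0.156, in cKO by the authors' values (FDR 0.0122, coverage only 32). Among Purkinje events 2 were listed, Klc1 and Kif22, a chromosome-binding motor whose retained intron had a difference of -0.330 (FDR 0.0434, coverage 39, the authors' values). Between controls 5 were listed, all members. Only 9 of the 50 had an event in any table, and 7 of these are the members, which were chosen among genes with events. Of all 2016 genes with an event in any table, 57.3% were in the Emx1-Cre, 48.4% in the Gad2-Cre, 14.2% in the Purkinje and 30.9% in the control table, shares that compare with counts out of the 9 and not out of the 50.

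Of 44 genes for adaptors, cargo links and cofactors of kinesins, 14 had an event in any table. Of these, 10 were listed in the Emx1-Cre table, 6 lower and 4 higher in cKO, and 7 in the Gad2-Cre table, 5 lower and 2 higher. Over all 2016 genes with an event in any table, 57.3% and 48.4% were in these tables, shares that compare with counts out of the 14. For directions, here and in the kinesin list, the share over genes was not computed. Over all events, 51.6% and 58.6% were lower in cKO. Tandem exons of Clstn1, a calsyntenin that binds KLC1, fell in both. Their authors' levels were 0.957 and 0.134 in Emx1-Cre controls and cKO, and 0.981 and 0.384 in those of Gad2-Cre. A cassette of the scaffold gene Cask fell from 0.622 to 0.212 in Emx1-Cre and from 0.880 to 0.190 in Gad2-Cre neurons in the authors' deposited tables. A mutually exclusive event of Cask rose, from 0.682 to 0.863 in Emx1-Cre and from 0.469 to 0.914 in Gad2-Cre neurons, by the authors' values. Madd, which links KIF1B to Rab3 vesicles, had a cassette listed in a 60 nt and a 21 nt form that overlap. By the authors' values the 60 nt form fell from 0.658 to 0.413 in Emx1-Cre neurons (FDR 0.0351, coverage 85.0). In Gad2-Cre neurons it fell from 0.731 to 0.359 (FDR 0.00356, coverage only 45). The 21 nt form fell from 0.486 to 0.275 in Emx1-Cre neurons (FDR 0.0347, coverage 55, the authors' values). In Gad2-Cre neurons it fell from 0.622 to 0.230 (FDR 0.00490, coverage only 30, the authors' values). Among Purkinje events 4 of the 14 were listed, beside 14.2% of all genes with an event in any table. One was Map7d2, of a family that recruits conventional kinesin to microtubules, whose cassette had a difference of 0.453 in the authors' deposited table. Between controls 3 of the 14 were listed, beside 30.9%.

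The events of other genes most like the Kif2a tandem form were sought among 182 tandem events in 78 genes that were listed in both cortical tables, by Euclidean distance over the 4 cortical levels. The nearest was in Bptf, a chromatin remodelling factor, at a distance of 0.102. Its authors' levels were 0.596 and 0.227 in Emx1-Cre controls and cKO, and 0.907 and 0.301 in those of Gad2-Cre. The next were in the transcription factor gene Zeb1, at 0.124, and in Actl6b, a neuronal chromatin remodelling subunit, at 0.174. The Zeb1 event is also assigned to Gm22709. Its coverage was only 46 in the Emx1-Cre (FDR 0.0405, the authors' value) and 29 in the Gad2-Cre table. With 4 pooled levels per event this is a description only.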

How the data were processed

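The labels give 30 samples of mouse brain or spinal cord RNA in 10 groups of 3. The tables used here rest on 18 of them, in 6 groups, sorted cortical cells or dissected Purkinje cell layer with ribosomal RNA removed. The 12 further samples were not analysed here. Whether samples of a group are separate animals is not stated, and the deposited FDR may thus reflect technical spread alone. Per the labels, the tables come from Quantas and build mm10. Other tools named in the submitters' processing notes are kallisto and edgeR, with no role given. The aligner and versions are not given in the sources used here. Inclusion levels are a fraction per group that the authors pooled, per the file headers. The difference of levels, another deposited value, is group 1 minus group 2. The p-value and FDR per event, and the coverage signal, are the authors' as well, per the file headers. Group order is named by the labels, except for the Purkinje table, whose levels were not used. For the table of controls the name gives the Cre lines only. It shares 2 kinesin events with each cortical cKO table, and their levels equal those of the control group there. Sample depth is unknown.

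Computed here, with Python 3.11.15, pandas 2.3.3 and scipy 1.17.1, were the choice of events by symbol, the places of regions from the deposited intervals (an "other" kind of deposited value, used for position only), counts beside those of all events, and the difference of effects. For the latter each spread was computed from a deposited p-value, read as that of a normal test, and the script was tested on simulated data. Events whose identifier repeats within a table entered once. Sequences and annotation are those of GENCODE M21, and counts of tetramers came from exons only, since flanking introns were not analysed here. The members, lists and tests were chosen with earlier results of these data known. Named outside the members were at most 4 genes per list, those with the largest differences. Alternatives were a difference of at least 0.2, an FDR of at most 0.01, a coverage of at least 50, 1 event per gene, matching by region, and other spreads, coverage and the logit scale in the test.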

Additional observations from a re-analysis of the deposited data

How the results depend on the processing

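No paired analysis was possible because the tables hold 1 pooled level per group and no value per sample; for the same reason no sample could be left out. Of the 5 events shared by the cortical tables, 5 were also shared when matched by region and 5 had a difference of at least 0.2 in both. The test of the effect difference called 0 of them under every alternative run. Keeping 1 event per gene lowered the events in the Emx1-Cre table to 5 (4 lower and 1 higher in cKO), in the Gad2-Cre table to 4 (3 lower), in the table of controls to 5 (4 higher in Gad2-Cre, 1 in Emx1-Cre) and in the Purkinje table to 1, since fewer events are counted. With a difference of at least 0.2, 1 event was higher in Emx1-Cre cKO and 0 in Gad2-Cre cKO, the controls kept 9 (7 and 2), and 0 were left among Purkinje events. With that limit, kinesin superfamily genes listed fell to 3 in the Gad2-Cre and 1 in the Purkinje table, and adaptor genes in the latter to 2. At an FDR of at most 0.01, 0 Purkinje events and 0 events higher in Gad2-Cre cKO were left. At a coverage of at least 50, the Kifc2 intron dropped out, leaving 1 event higher in Emx1-Cre cKO, and the controls kept 11 (9 and 2), all of Kif1b and Kif21a. The planned count of tetramers in flanking introns was not run at any of its window sizes, since no genome sequence was used here.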
